A study of Homo sapiens with 11 samples.

Results

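Collagen genes encode the chains of the collagen triple helix, the main structural protein of the extracellular matrix. They were taken as the protein-coding genes of GRCh38 whose symbol is COL, a number, the letter A and a number, such as COL1A1. There were 44 of them among 19974 protein-coding genes on chromosomes 1 to 22 and X. The peaks described are those within 1 kb of either annotated end of each gene, and FLI1 and H3K27ac peaks within 100 kb, and the same counts over all protein-coding genes stand beside them.

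Each collagen chain folds with partner chains into a triple helix in the endoplasmic reticulum, where prolyl and lysyl hydroxylases modify it, and the helix is exported, trimmed and cross-linked outside the cell. Fibrillar collagens build the cable-like fibrils of connective tissue, type IV collagens the network of basement membranes, type VI collagens beaded filaments, and FACIT collagens sit on the surface of fibrils. Ewing sarcoma is a tumour of bone and soft tissue driven by the EWSR1::FLI1 fusion, which binds DNA through the ETS domain of FLI1, and it grows in collagen-rich surroundings. At genes, H3K4me3 and H3K27ac mark active promoters, H3K4me1 marks enhancers, and H3K27me3 marks chromatin repressed by Polycomb. CHD4 is the ATPase, HDAC2 a deacetylase, MTA2 a scaffold and RBBP4 a histone-binding subunit of the NuRD chromatin remodelling complex. RBBP4 also belongs to other chromatin complexes.

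The series held ChIP-seq of the Ewing sarcoma cell line SKNMC, labelled wildtype in all 11 samples. There was 1 peak list for each of 9 targets: the marks H3K4me3, H3K27ac, H3K4me1 and H3K27me3, the factor FLI1, and RBBP4, MTA2, HDAC2 and CHD4. CHD4 was pulled down through a Flag tag, whose origin in cells labelled wildtype was not stated. Inputs numbered 2 and had no list. With 1 list per target and no replicate, no value has a replicate error and no test between samples was possible. Brackets hold 95% Wilson intervals, which cover counting error over genes only. The lists held 1561 (FLI1) to 31247 (H3K4me1) peaks, and the read depth behind them is unknown. Fold enrichment and −log10 p of a peak are the authors' own values and were compared within a list only. The label of the line was checked against marker genes. All 6 Ewing sarcoma markers lay within 100 kb of a FLI1 peak, against 12.3% of all genes. Of these 6 markers 5 had H3K27ac at a gene end (all but CD99), against 39.4% of all genes. None of 6 fibroblast markers had H3K27ac or H3K4me3 at an end. H3K27ac lay at an end of 1 of 3 blood markers (PTPRC) and of 1 of 3 epithelial markers (KRT8). PTPRC also lay 12.6 kb from a FLI1 peak, the only fibroblast, blood or epithelial marker within 100 kb of one.

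Fewer collagen genes than protein-coding genes overall carried promoter marks at their ends, and more carried H3K27me3. H3K4me3 lay within 1 kb of an end of 16 of 44 collagen genes, 36.4% (23.8 to 51.1), against 57.0% of all protein-coding genes. H3K27ac lay at 8 collagen genes, 18.2% (9.51 to 32.0), against 39.4% of all genes. HDAC2 lay at 10, 22.7% (12.8 to 37.0), against 39.1% of all genes. For these 3 targets the interval of the collagen genes lay below the share of all genes. For HDAC2 this did not hold with windows of 500 bp (12.8 to 37.0, against 36.1%) or 2 kb (20.0 to 46.6, against 41.6%), nor with peaks of −log10 p of at least 15 (11.2 to 34.5, against 34.1%). H3K27me3 lay at 5 collagen genes, 11.4% (4.95 to 24.0), against 2.37% of all genes, with the interval above that share. Without the 2 collagen genes on chromosome 8 it lay at 7.14% (2.46 to 19.0), an interval only narrowly above it.

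In the same setting the other lists did not set the collagen genes apart. MTA2 and RBBP4 each lay at 5 collagen genes, 11.4% (4.95 to 24.0), against 20.9% of all genes for MTA2 and 22.1% for RBBP4. CHD4 lay at 4 collagen genes, 9.09% (3.59 to 21.2), against 10.5% of all genes, and H3K4me1 at 3, 6.82% (2.35 to 18.2), against 7.70%. FLI1 lay at an end of 0 of 44 collagen genes (0 to 8.03), against 0.856% of all genes. Each of these intervals covered the share of all genes, so a difference was not detectable with 44 genes. For RBBP4 the interval lay just below that share with peaks of −log10 p of at least 15 (0 to 8.03, against 8.74%).

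**Figure D1:**
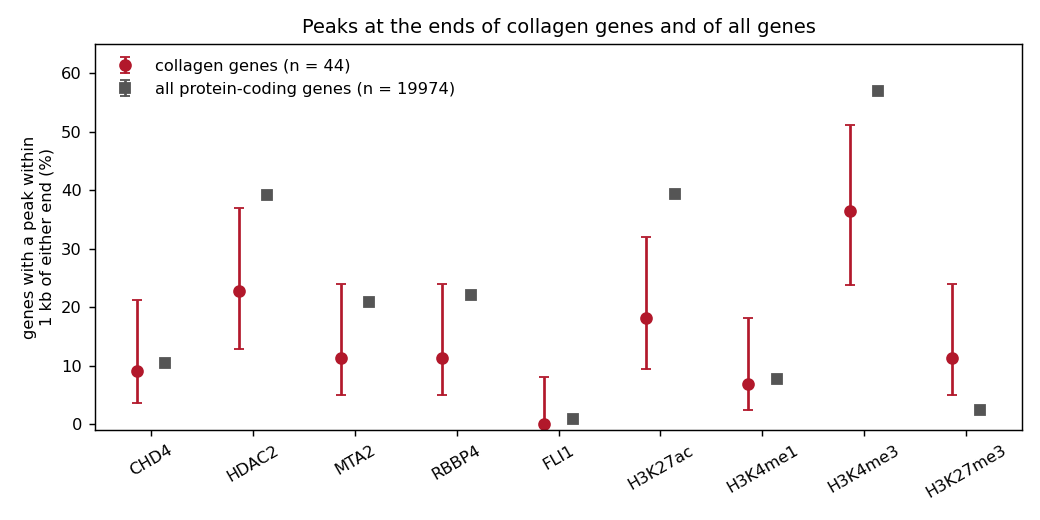
Share of genes (%, vertical axis) with a peak within 1 kb of either gene end, for each ChIP target (horizontal axis). Red circles are the 44 collagen genes with 95% Wilson intervals, grey squares all 19974 protein-coding genes, whose intervals are narrower than the symbols. H3K4me3, H3K27ac and HDAC2 lie below and H3K27me3 above the share of all genes.

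Many peaks at gene ends also lay within 1 kb of another gene. With such peaks not counted, for collagen genes and all genes alike, H3K4me3 stood at 11 of 44 collagen genes, 25% (14.6 to 39.4), against 39.9% of all genes, and H3K27ac at 5, 11.4% (4.95 to 24.0), against 26.1%. Both intervals still lay below the share of all genes, that of H3K4me3 narrowly. HDAC2 stood at 15.9% (7.93 to 29.4) against 27.5%, an interval that covered it. RBBP4 stood at 4.55% (1.26 to 15.1) against 15.2%, just below it. H3K27me3 stayed at 11.4% (4.95 to 24.0) against 2.17%. Counted this way, CHD4 lay at 9.09% of collagen genes against 8.37% of all genes, MTA2 at 6.82% against 15.0%, H3K4me1 at 6.82% against 6.13%, and FLI1 at 0 of 44 against 0.486%. This count was added after the peaks of COL5A2 were seen to lie at an end of its neighbour WDR75.

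Sorted by the peaks at their ends, 7 collagen genes had H3K4me3 with H3K27ac, the pattern of active promoters, which is 15.9% (7.93 to 29.4) against 38.1% of all genes. They were COL3A1, COL5A2, COL4A1, COL4A2, COL16A1, COL19A1 and COL18A1. A further 9, 20.5% (11.2 to 34.5) against 18.9% of all genes, had H3K4me3 without H3K27ac: COL1A1, COL5A1, COL11A2, COL4A3, COL4A4, COL6A1, COL6A2, COL13A1 and COL25A1. Among genes with H3K4me3, H3K27ac was thus present at 7 of 16 collagen genes, 43.8% (23.1 to 66.8), against 66.9% of all such genes. That share is just outside the interval, which treats the 16 genes as separate. COL4A1 and COL4A2 were counted through the same peaks, and COL4A3 and COL4A4 through the same H3K4me3 peak. A difference in this share was therefore not shown. The 5 genes with H3K27me3, COL6A5, COL6A6, COL12A1, COL14A1 and COL22A1, all lacked H3K4me3 at their ends. Over all genes, 274 of the 474 with H3K27me3 also had H3K4me3. No collagen gene thus had both marks, against 1.37% of all genes. COL9A3 had H3K27ac without H3K4me3 (1.21% of all genes), and COL5A3 and COL27A1 had only a NuRD subunit (1.12%). The other 20 collagen genes, 45.5% (31.7 to 59.9), had no peak of any list at an end, against 38.1% of all genes.

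**Figure D2:**
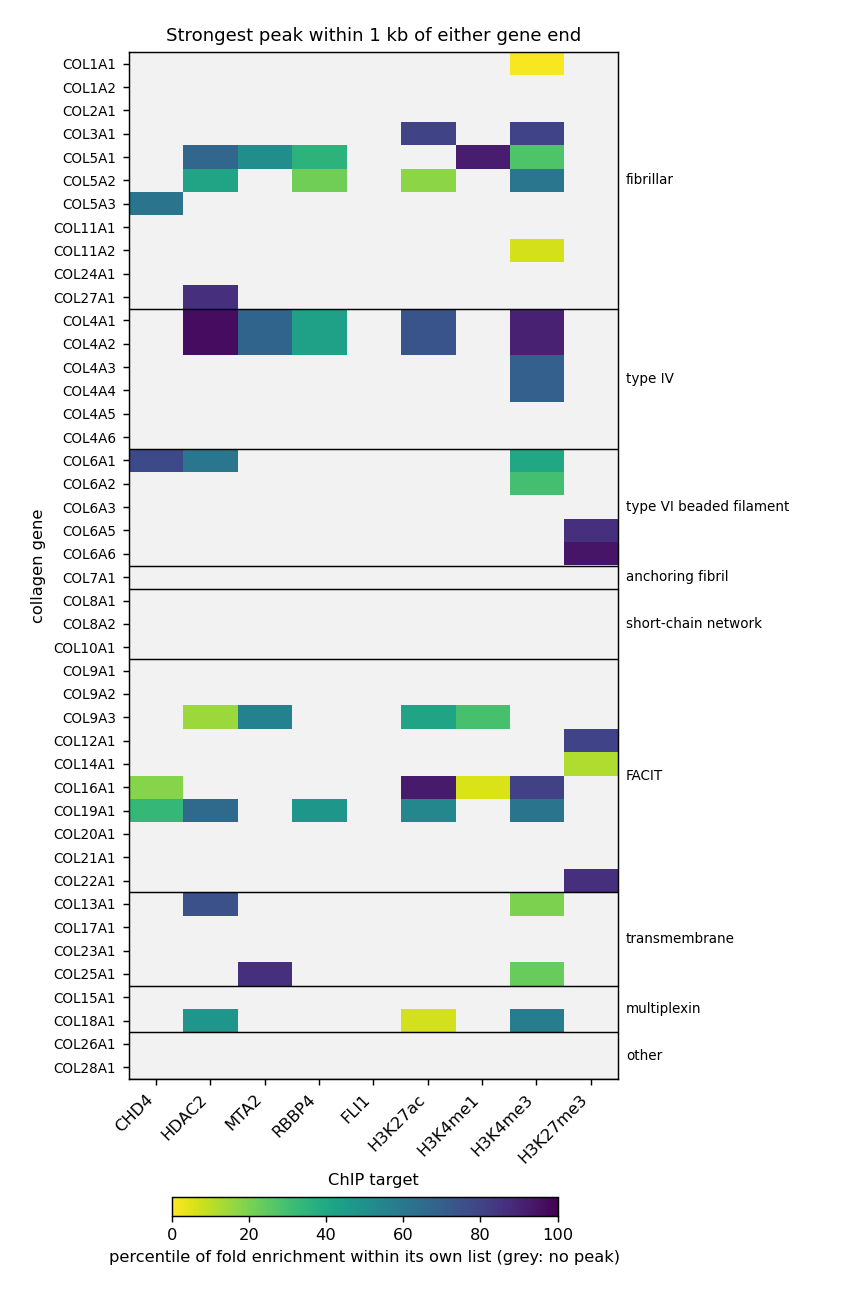
Strongest peak of each ChIP target (columns) within 1 kb of either end of each of the 44 collagen genes (rows, by structural class). Colour is the percentile of its fold enrichment within its own list, from 0 to 100, and grey means no peak. Marks of active promoters and H3K27me3 lie at different genes, and the FLI1 column is empty.

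Of the 11 fibrillar genes, 5 had H3K4me3 at an end, 2 had H3K27ac, none had H3K27me3 and 4 had no peak at an end. Over all genes these shares were 57.0%, 39.4%, 2.37% and 38.1% in the same order. The genes of the most abundant fibrillar protein, type I collagen, carried few peaks. COL1A1 (chr17:50184101-50201631) had a single H3K4me3 peak of 5.11-fold enrichment, a height at percentile 0.805 of its list, and held 1 peak each of CHD4, HDAC2 and MTA2 inside the gene. COL1A2 had no peak of any list at an end or inside the gene.

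COL3A1 (chr2:188974373-189012746), the chain of type III collagen found beside type I in skin and vessels, was the fibrillar gene with the highest H3K4me3 and H3K27ac peaks at a gene end. Its lower-coordinate end carried H3K4me3 at 22.2-fold, rank 3218 of 16089 by fold, and H3K27ac at 10.9-fold, rank 4412 of 21500. No NuRD subunit lay within 1 kb of its ends. Farther inside the gene it held 3 CHD4, 2 HDAC2, 2 MTA2 and 2 RBBP4 peaks, all within the first 4.581 kb, next to 5 H3K27ac peaks that reached 5.595 kb into the gene.

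COL5A2, a chain of the type V collagen that sets fibril diameter, lies 19.2 kb beyond COL3A1. Its higher-coordinate end had H3K4me3 at 18.2-fold, H3K27ac at 5.39-fold, HDAC2 at 4.80-fold and RBBP4 at 3.48-fold. The H3K4me3 and HDAC2 peaks also covered an end of WDR75, a ribosome biogenesis gene, so these peaks cannot be assigned to COL5A2 alone. A second H3K4me3 peak of 3230 bp and 22.6-fold lay inside the gene (chr2:189177170-189180399), with H3K27ac at 9.84-fold, HDAC2 at 4.76-fold, MTA2 at 5.26-fold and CHD4 at 3.36-fold. The sources used here held no annotated start for COL5A2. Whether this inner site or the far end is its promoter was therefore not tested.

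COL5A1, the partner chain in type V collagen, had peaks of 5 lists around its start and no H3K27ac within 1 kb. H3K4me3 stood at 11.7-fold, H3K4me1 at 8.36-fold (percentile 92.1), HDAC2 at 5.75-fold, MTA2 at 6.69-fold and RBBP4 at 3.85-fold. It had 5 H3K27ac peaks inside the gene, the nearest of any to its ends 50.6 kb away. The minor type V chain COL5A3 had only CHD4, at 5.01-fold.

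Type XI collagen is the fibril-forming partner of type II in cartilage. COL11A1 had no peak at an end and its nearest H3K27ac peak was 101 kb away. COL11A2 had H3K4me3 at 6.99-fold (percentile 6.39) at its lower-coordinate end, which is not at any of its 4 annotated starts. COL2A1, the cartilage type II chain, had no peak at an end and held 2 H3K27me3 peaks inside the gene, the higher at 6.02-fold, along with 2 peaks each of CHD4 and HDAC2 and 1 each of MTA2, RBBP4, H3K4me1 and H3K4me3. COL24A1 had none at an end. COL27A1 had HDAC2 at 7.02-fold (percentile 86.4) at its lower-coordinate end, and its annotated start, farther inside the gene, had H3K4me3 at 10.5-fold. COL26A1, of no common structural class, also had H3K4me3 near an annotated start inside the gene, at 7.73-fold. Both H3K4me3 peaks lay outside the windows around the gene ends and are not among the 16 genes counted.

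The 6 type IV genes stand head to head in 3 pairs, each pair around a short stretch of DNA, and the pairs differed in the peaks on or beside it. The strips between the paired gene ends are shown because these peaks were counted at both genes of a pair. They come from the RefSeq promoter table of GRCh38.p14, plus strand, and capitals mark GGAA, the core bound by ETS factors such as FLI1, or its complement TTCC. The strip of COL4A6 and COL4A5 is 379 bp long and its last 250 bases are given.
COL4A1 and COL4A2, chr13:110307158-110307283: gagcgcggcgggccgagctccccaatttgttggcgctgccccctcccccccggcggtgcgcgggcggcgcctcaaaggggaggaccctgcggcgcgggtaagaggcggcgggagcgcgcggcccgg
COL4A4 and COL4A3, chr2:227164489-227164623: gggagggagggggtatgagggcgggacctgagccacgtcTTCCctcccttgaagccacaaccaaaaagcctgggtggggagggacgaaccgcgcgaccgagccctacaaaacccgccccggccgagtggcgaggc
COL4A6 and COL4A5, chrX:108439588-108439837: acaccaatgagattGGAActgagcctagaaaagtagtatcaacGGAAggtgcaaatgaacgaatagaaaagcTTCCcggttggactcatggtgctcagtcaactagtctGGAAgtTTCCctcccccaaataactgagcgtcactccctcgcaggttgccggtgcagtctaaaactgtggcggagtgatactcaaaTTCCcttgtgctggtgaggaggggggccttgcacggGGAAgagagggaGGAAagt

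COL4A1 and COL4A2, the chains of the basement membrane collagen found in nearly all tissues, had the highest H3K4me3 and HDAC2 peaks at any collagen gene end. Over their strip of 126 bp lay an H3K4me3 peak of 2801 bp and 25.6-fold (percentile 90.9), an HDAC2 peak of 8.96-fold (percentile 96.8), an MTA2 peak of 7.66-fold and an RBBP4 peak of 4.06-fold. An H3K27ac peak of 10.0-fold (percentile 74.1) lay almost wholly inside COL4A1. It reached only the edge of the strip and ended 118 bp short of COL4A2. CHD4 was not called there. These are 5 peaks counted at both genes, so the pair is 1 observation. A site inside COL4A2 (H3K27ac at chr13:110387430-110388618) had all 4 subunits, CHD4 at 5.35-fold among them, with H3K27ac at 9.97-fold and H3K4me3 at 11.2-fold.

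COL4A3 and COL4A4, chains of the kidney, lung and eye basement membranes whose loss causes Alport syndrome, had within 1 kb of both genes only an H3K4me3 peak of 640 bp and 19.9-fold (percentile 69.4). It lay inside COL4A4, over its annotated start and 179 bp from the strip of 135 bp between the gene ends. COL4A4 held 2 peaks of each NuRD subunit inside the gene and no H3K27ac. COL4A5 and COL4A6, their partners on the X chromosome, had no peak at an end or inside, and COL4A5 was the only collagen gene with no peak of any list within 100 kb of its ends. The 3 printed stretches held 20 CpG (80.2% G and C) for COL4A1 and COL4A2, 11 CpG (68.1%) for COL4A4 and COL4A3, and 8 CpG in 250 bases (51.2%) for COL4A6 and COL4A5. GGAA or TTCC occurred 0 times, 1 time and 8 times in the same order, and FLI1 had no peak at any of the 3.

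**Figure D3:**
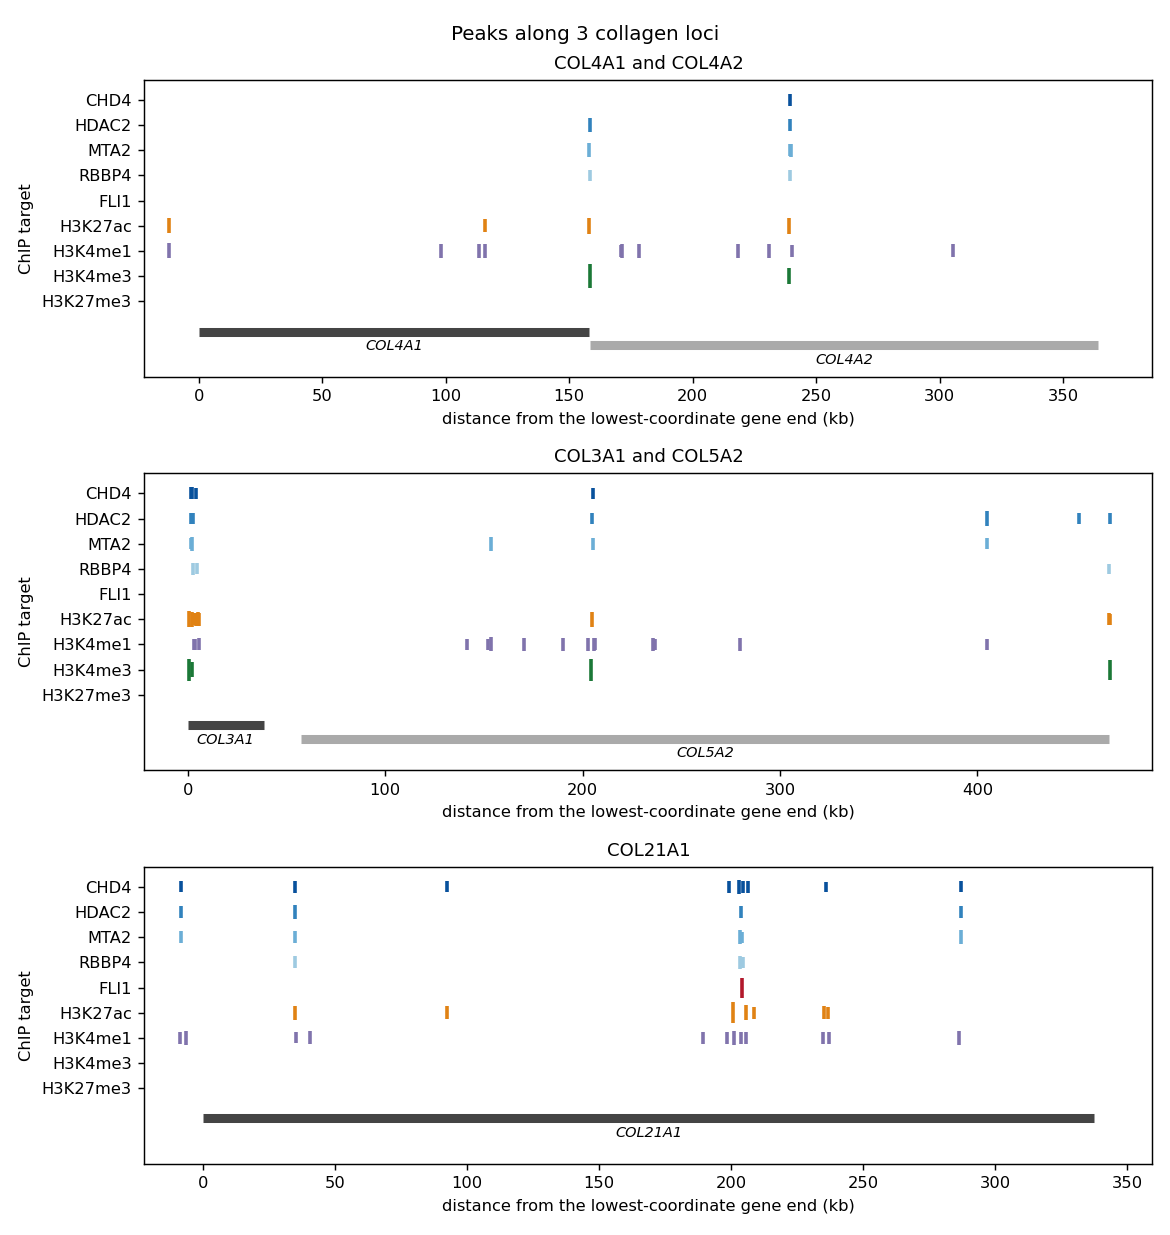
Peaks of each ChIP target (rows) along 3 collagen loci, with distance from the lowest-coordinate gene end in kb on the horizontal axis. Each tick stands at a peak, taller for a higher fold enrichment, and grey bars are the genes. COL4A1 and COL4A2 share the cluster between them, COL5A2 has clusters inside the gene and at its far end, and COL21A1 has clusters inside the gene and a smaller one about 8 kb outside it.

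The type VI genes divided by chain. COL6A1 and COL6A2, which with COL6A3 form the common type VI filament, had H3K4me3 at 14.3-fold and 12.2-fold and no H3K27ac. CHD4 at 5.73-fold and HDAC2 at 5.49-fold lay 201 bp and 226 bp outside the end of COL6A1. COL6A3 had no peak at an end, and 9 H3K27me3 peaks of 6.03-fold to 7.92-fold covered 4.61 kb inside it. COL6A5 and COL6A6, later-described chains that can stand in for COL6A3, are neighbours 31.9 kb apart and had H3K27me3 at their lower-coordinate ends, at 7.65-fold (percentile 86.7) for COL6A5 and at 8.30-fold (percentile 94.3) for COL6A6. COL6A6 also held 5 CHD4, 3 HDAC2, 4 MTA2 and 4 RBBP4 peaks and 4 H3K27ac peaks inside the gene.

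The 10 FACIT genes held the other 3 genes with H3K27me3 at an end. COL12A1, a collagen of tendon and muscle, had 3 peaks around its start, the highest at 7.22-fold. COL14A1, its close relative, had 1 of 4.56-fold (percentile 11.8) that was 2012 bp wide. COL22A1, a collagen of the junction of muscle and tendon, had 1 of 7.61-fold at its higher-coordinate end and 25 farther inside. These 26 peaks covered 15.8 kb, the greatest H3K27me3 cover in the family. The 250 bases before the start of COL12A1 are shown, on the minus strand, as a promoter under H3K27me3, beside those of COL16A1, the promoter of highest H3K27ac.
COL12A1, chr6:75206054-75206303: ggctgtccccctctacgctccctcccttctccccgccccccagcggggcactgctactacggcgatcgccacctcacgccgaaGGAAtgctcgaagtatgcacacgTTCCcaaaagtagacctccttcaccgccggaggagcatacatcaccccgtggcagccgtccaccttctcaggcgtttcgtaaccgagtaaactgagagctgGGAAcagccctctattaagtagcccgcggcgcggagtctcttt
COL16A1, chr1:31704018-31704267: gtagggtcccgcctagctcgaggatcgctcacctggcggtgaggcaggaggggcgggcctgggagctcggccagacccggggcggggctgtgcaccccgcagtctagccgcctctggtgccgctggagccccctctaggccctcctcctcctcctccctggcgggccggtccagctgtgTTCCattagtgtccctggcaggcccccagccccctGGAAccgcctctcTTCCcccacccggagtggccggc

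Both stretches were CpG-containing and held GGAA or TTCC 3 times, with 21 CpG at COL12A1 and 16 CpG at COL16A1. COL14A1 and COL22A1 lie in a segment of the long arm of chromosome 8, from 119.4 to 142.9 Mb, that held 919 of the 3420 H3K27me3 peaks (26.9%). In it 23 of 87 genes (26.4%) had H3K27me3 at an end, both collagen genes among them. Without them 3 of 42 collagen genes, 7.14% (2.46 to 19.0), had H3K27me3 at an end, against 2.27% of the genes outside the segment. That interval lay only narrowly above the share. It treats the 3 genes as separate, though COL6A5 and COL6A6 among them are neighbours 31.9 kb apart.

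Collagen genes are long, with a median of 145 kb against 24.2 kb for all protein-coding genes, and many of their peaks lay inside. With the whole peak more than 1 kb from both ends, H3K27me3 had 0.611 peaks per 100 kb of collagen gene, against 0.101 per 100 kb over all genes. COL22A1 alone held 25 of these 42 peaks, and without the collagen genes on chromosome 8 the density was 0.254. H3K27me3 peaks were short, with a median width of 499 bp in the list, and many of those in COL22A1 lay close together. Their number per 100 kb is therefore not the extent of the mark. The 0.101 over all genes still includes chromosome 8. The peaks outside COL22A1 lay in COL6A3 (9 peaks), COL6A5, COL2A1, COL8A1, COL23A1 and COL14A1. H3K4me3 was sparser inside collagen genes, at 0.116 per 100 kb (8 peaks) against 0.249. CHD4 had 0.611 peaks per 100 kb against 0.454, MTA2 0.539 against 0.413, HDAC2 0.611 against 0.589, RBBP4 0.408 against 0.403, H3K27ac 0.553 against 0.567 and H3K4me1 1.46 against 1.46. Of the 44 collagen genes, 8 had no peak of any list inside or across an end: COL1A2, COL4A5, COL4A6, COL7A1, COL9A2, COL10A1, COL15A1 and COL28A1.

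**Figure D4:**
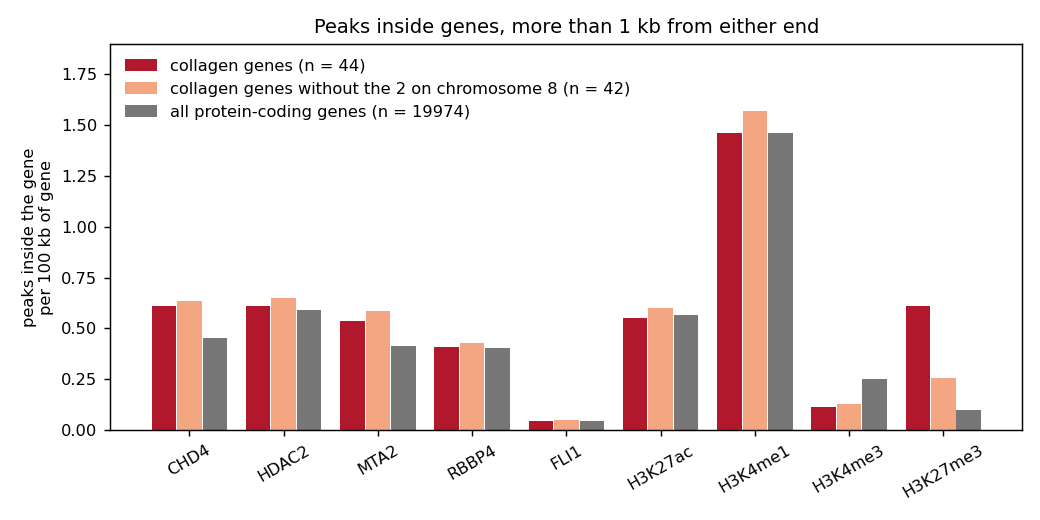
Peaks inside genes, more than 1 kb from either end, per 100 kb of gene (vertical axis) for each ChIP target (horizontal axis). Red bars are the 44 collagen genes, orange bars the 42 that are not on chromosome 8, and grey bars all 19974 protein-coding genes, chromosome 8 included. H3K27me3 is 0.611, 0.254 and 0.101, and H3K4me3 is 0.116, 0.127 and 0.249 in the order of the bars.

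COL16A1, a FACIT of skin and cartilage fibrils, had the highest H3K27ac of any collagen end, at 14.8-fold (percentile 92.6) over 2808 bp, with H3K4me3 at 22.3-fold and CHD4 at 3.68-fold. COL19A1, a rare FACIT of muscle and nerve, had H3K4me3 at 18.4-fold, H3K27ac at 7.74-fold, HDAC2 at 5.67-fold, RBBP4 at 4.18-fold and CHD4 at 4.17-fold around its start. It also held 19 H3K4me1 and 5 HDAC2 peaks inside the gene, the most of any collagen gene for both. COL9A1 lies 2.59 kb beyond it and had no peak at an end, nor did COL9A2. Their partner in type IX collagen, COL9A3, had H3K27ac at 6.84-fold, H3K4me1 at 5.26-fold, MTA2 at 6.94-fold and HDAC2 at 3.92-fold without H3K4me3.

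COL18A1, the multiplexin whose tail is released as endostatin, had H3K4me3 at 17.7-fold, HDAC2 at 5.01-fold and a low H3K27ac peak of 4.60-fold (percentile 6.80) that began 787 bp inside its start. Of the transmembrane collagens, COL13A1 had H3K4me3 at 9.98-fold with HDAC2 at 6.18-fold, and COL25A1, needed for the innervation of muscle in mice, had H3K4me3 at 10.7-fold with MTA2 at 9.44-fold (percentile 86.2). COL17A1 of the skin hemidesmosome and COL23A1 had no peak at an end. The anchoring fibril gene COL7A1, the short-chain genes COL8A1, COL8A2 and COL10A1, COL15A1 and COL28A1 had none either.

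NuRD subunits at collagen ends were partial sets, as they mostly were over all genes. At least 1 subunit lay at 13 of 44 genes, 29.5% (18.2 to 44.2), against 45.4% of all genes. The interval lay narrowly below that share, with COL4A1 and COL4A2 counted as separate genes though they share their peaks. All 4 lay at 0 of 44 (0 to 8.03), against 5.63%, a share that the interval covered. COL4A1, COL4A2, COL5A1 and COL19A1 had 3 subunits, with CHD4 lacking at the first 3 and MTA2 lacking at COL19A1. COL5A2, COL6A1 and COL9A3 had 2, and 6 genes had 1. Over all genes 8.07% had 3 subunits, 14.2% had 2 and 17.5% had 1. HDAC2 lay mostly with H3K4me3. It was found at 8 of 16 collagen genes with H3K4me3, 50.0% (28.0 to 72), against 65.8% of all genes with H3K4me3, and at 2 of 28 without, 7.14% (1.98 to 22.6), against 3.80% of all genes without. None of the 5 collagen genes with H3K27me3 at an end had a subunit there, against 10.0% of the 200 genes with H3K27me3 and no H3K4me3 and 35.0% of all 474 with H3K27me3, so 0 of 5 does not set them apart.

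FLI1 lay near collagen genes about as often as near other genes. Within 100 kb of an end there was a FLI1 peak for 6 of 44 collagen genes, 13.6% (6.40 to 26.7), against 12.3% of all genes. The median distance to the nearest FLI1 peak was 570 kb for collagen genes and 747 kb for all genes. Collagen genes are longer, so windows and distances from both ends reach over more sequence, which was not corrected for. Narrowed to 50 kb, the share was 4.55% (1.26 to 15.1) against 7.64% of all genes, which the interval covered. None of the 6 genes had the peak closer than 7.53 kb. Outside the gene, the peak usually had another gene nearer, so proximity does not assign it to the collagen gene.

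By −log10 p, the strongest of these peaks lay in or beside COL13A1, COL19A1 and COL4A3. COL13A1 had a FLI1 peak of 9.75-fold inside the gene (chr10:69936074-69936333), with H3K27ac at 8.50-fold, CHD4 at 4.96-fold and HDAC2 at 5.74-fold, and another of 15.3-fold with all 4 subunits 82.0 kb outside it, nearer to MACROH2A2. COL19A1 had a pair of peaks 91.3 kb and 90.7 kb before its start, nearer to LMBRD1, of 12.4-fold and 3.81-fold, with all 4 subunits and H3K27ac at 14.2-fold. COL4A3 had a peak of 6.56-fold with all 4 subunits and no H3K27ac, 59.4 kb away and nearer to TM4SF20. COL20A1 had a peak of 6.74-fold inside the gene, 7.53 kb from an end, with RBBP4 as its only subunit. The peaks near COL8A2 and COL11A2, both of 3.95-fold and at ranks 1439 and 1400 of 1561 by −log10 p, lay 99.0 kb and 78.2 kb away beside THRAP3 and VPS52. COL8A2 at 99.0 kb was the last gene inside the limit, and COL21A1 at 133 kb the first outside it.

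**Figure D5:**
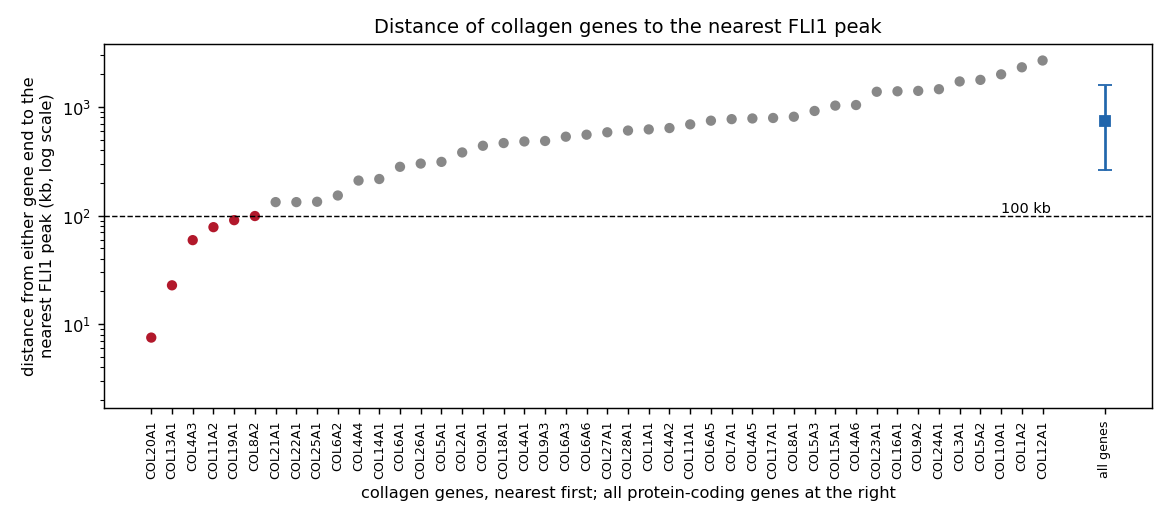
Distance in kb, on a log scale, from either end of each collagen gene to the nearest FLI1 peak, nearest gene first. Red points are the 6 genes within 100 kb (dashed line) and grey points the other 38. The blue square at the right is the median of all protein-coding genes, 747 kb, with its quartiles of 263 and 1608 kb.

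COL21A1, a FACIT of vessel walls, held the strongest FLI1 peak of the family although the distance rule did not count it. The peak (chr6:56260546-56260913) had 18.9-fold enrichment and a −log10 p of 99.9, rank 15 of 1561 in its list, and lay inside the gene, 133 kb from an end and 13.0 kb from an annotated start inside the gene. Next to it were H3K27ac at 19.3-fold over 6303 bp (percentile 98.0), CHD4 at 8.07-fold (percentile 97.3), MTA2 at 8.44-fold, HDAC2 at 5.76-fold and RBBP4 at 3.55-fold. The gene held 8 CHD4 and 7 H3K27ac peaks inside, the most of any collagen gene for both, and no H3K4me3. At the lowest-coordinate of its 3 annotated starts lay all 4 subunits (HDAC2 at 6.38-fold, CHD4 at 4.65-fold, MTA2 at 4.84-fold and RBBP4 at 4.83-fold) with H3K27ac at 7.67-fold. The 250 bases before that start, on the minus strand, are shown because it was the only annotated collagen start with all 4 subunits within 1 kb.
COL21A1, chr6:56091663-56091912: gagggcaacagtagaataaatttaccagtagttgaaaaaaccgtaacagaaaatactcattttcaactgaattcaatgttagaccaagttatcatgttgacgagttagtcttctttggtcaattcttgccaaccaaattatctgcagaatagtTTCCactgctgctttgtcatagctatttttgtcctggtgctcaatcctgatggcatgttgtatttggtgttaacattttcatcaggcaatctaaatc

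This stretch had 2 CpG, 36.0% G and C, and TTCC in 1 place. No genome sequence was in the sources used here, so the letters under the FLI1 peaks are not shown.

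H3K27ac lay within 100 kb of an end of 38 of 44 collagen genes, 86.4% (73.3 to 93.6), against 77.8% of all genes. The median distance to the nearest such peak was 18.3 kb for collagen genes and 10.2 kb for all genes. The 6 genes beyond 100 kb were COL4A4, COL4A5, COL6A5, COL9A1, COL11A1 and COL22A1. Windows around the ends of a longer gene cover more sequence by construction. Narrowed to 50 kb, the share was 68.2% of collagen genes and 68.2% of all genes. Widened to 200 kb, it was 97.7% (88.2 to 99.6) against 86.9%, with the interval above the share of all genes.

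Promoter letters were counted in the RefSeq GRCh38.p14 windows from 250 bases before to 50 after the outermost start, which were found for 32 of 44 collagen genes and 15813 protein-coding genes. Collagen promoters with H3K4me3 at the start had a median of 29.0 CpG (13 genes), against 27 for all genes with H3K4me3, and those without it 16.0 (19 genes), against 7. COL15A1 and COL8A2 had 45 CpG each without H3K4me3, while COL19A1 had 11 with it. GGAA on either strand occurred in 93.8% of collagen promoters (30 of 32), against 95.2% of all promoters, and GGAAGGAA, which contains it, in 0 of 32, against 3.61%. The GC box GGGCGG occurred in 53.1%, against 58.3%, CCAAT in 28.1%, against 36.4%, and TATAAA in 15.6%, against 9.75%. These last 3 motifs were added after the peaks were seen.

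Genes that make, export and use collagen had promoter marks in higher shares than the collagen genes. Over 50 such genes, chosen by their known function, H3K27ac lay at an end of 44% (31.2 to 57.7), H3K4me3 at 70.0% (56.2 to 80.9) and HDAC2 at 56.0% (42.3 to 68.8), against the 39.4%, 57.0% and 39.1% of all genes. H3K27me3 lay at 8% (3.15 to 18.8), against 2.37% of all genes, and CHD4 at 24.0% (14.3 to 37.4), against 10.5%. The intervals of HDAC2, H3K27me3 and CHD4 lay above the share of all genes, and those of H3K27ac and H3K4me3 covered it. The 17 folding and modifying enzymes held 15 of the 22 genes with H3K27ac, 14 of the 35 with H3K4me3, 13 of the 28 with HDAC2 and none of the 4 with H3K27me3. H3K27ac lay at 88.2% of these enzymes, against 18.2% of the collagen genes. It lay at 30.0% of the receptors, 20.0% of the export genes, 20.0% of the collagenases and 15.4% of the processing and cross-linking genes. FKBP10, a collagen prolyl isomerase, and P3H4, part of a lysyl hydroxylase complex, are neighbours and shared an H3K27ac peak of 14-fold. SERPINH1, the collagen chaperone HSP47, had H3K27ac at 13.8-fold with H3K4me3 at 22.9-fold. P4HA2 and P4HA3, prolyl hydroxylase subunits named after their values were seen, were the enzymes without an H3K27ac peak. FLI1 lay within 100 kb of 5 of the 17 (FKBP10, P3H4, COLGALT2, PLOD1 and P3H3, named likewise), against 12.3% of all genes. FKBP10 and P3H4 were counted by way of the same 13.7-fold peak.

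Beside the counts of the smaller lists stand the shares of all genes, 57.0% for H3K4me3, 39.4% for H3K27ac, 39.1% for HDAC2 and 2.37% for H3K27me3. All 5 export genes had H3K4me3, and 1 had H3K27ac, SEC23A of the COPII coat at 5.20-fold. Of the 13 processing and cross-linking genes 8 had H3K4me3 (61.5%, near the share of all genes), 8 HDAC2 (61.5%) and 2 H3K27ac (15.4%). These were LOXL1, a lysyl oxidase, at 10.8-fold, and PCOLCE, an enhancer of procollagen cleavage, at 10.5-fold. ADAMTS2, the main procollagen N-proteinase, had H3K27me3 at 6.46-fold and no peak of another list at an end. PCOLCE2 had H3K27me3 at 4.70-fold together with H3K4me3 at 16.4-fold, HDAC2 at 7.30-fold, RBBP4 at 4.30-fold and CHD4 at 4.24-fold. Among 10 receptors 6 had H3K4me3 (60.0%, near the share of all genes) and 3 H3K27ac (30.0%). DDR2, a kinase that senses fibrillar collagen, had H3K27ac at 14.9-fold, and ITGB1, the beta chain of the collagen integrins, at 14.3-fold. MRC2, which takes up collagen fragments, had it at 5.28-fold. The integrin chains ITGA2 and ITGA11 had both H3K4me3 and H3K27me3. Of 5 collagenases 2 had H3K4me3 and only MMP14, the membrane-bound one, H3K27ac, at 9.44-fold.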

How the data were processed

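ChIP-seq peak lists of the SKNMC line were analysed, 1 per target for 9 targets, grouped by the target in the labels. The 2 inputs had no list. Per the submitters' processing notes, the tools were bedtools 2.27.1, deepTools 3.2.1, SAMtools 1.9, BWA 0.7.17, FastQC 0.11.7 and Trimmomatic 0.36, on GRCh38. Peak names carry MACS2, per the deposited files. Its version, control and any pooling were not stated. The deposited fold enrichment of a peak is a ratio over local background computed by the authors' caller. The −log10 p is also as deposited by the authors. No read counts come with the lists, so depth is unknown.

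Peaks were put in 1-based coordinates. Protein-coding genes of chromosomes 1 to 22 and X came from a RefSeq gene table of GRCh38, and others were not analysed here. A peak counted with at least 1 bp in a window from 1 kb outside to 1 kb inside either gene end, and likewise for 100 kb. The table gives no strand, and the promoter table gave starts for 32 of 44 collagen genes, so both ends were used. Counts and shares with 95% Wilson intervals were computed in Python 3.11.15 with pandas 2.3.3, and the counting was checked on simulated lists. No test across genes was run. Members named in full had a FLI1 peak within 100 kb, H3K27me3 at an end, H3K27ac at an end, or no peak within 100 kb, or were fibrillar. Of each pathway list up to 3 members of highest H3K27ac were named. Further genes were chosen for naming with values in view. Members, classes and gene lists were chosen with earlier results of these data known. Alternatives covered the windows, summits, peak thresholds, distance from the gene body, shared loci, shared peaks and chromosome 8.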

Additional observations from a re-analysis of the deposited data

How the results depend on the processing

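Of 100 alternative values 81 stayed within the interval of the reported value or, for counts of genes, within 1.5 times, and 19 moved. Windows of 500 bp gave 2.27% for H3K4me1 (5.14% of all genes). Peaks with a −log10 p of 15 or more gave 0 for RBBP4 (8.74% of all genes) and 2.27% for H3K4me1 (5.47%). They left 1 collagen gene with only a NuRD subunit (1.06% of all genes). Cutting every list to its 2000 strongest peaks gave 2.27% for CHD4 (1.05% of all genes) and 4.55% for HDAC2 (3.42% of all genes). Both were now above the share of all genes, with intervals that covered it. The same cut gave 0 for MTA2 (4.34%), RBBP4 (1.67%) and H3K4me1 (0.676%). It gave 2.27% for H3K27ac (7.21%) and H3K4me3 (11%), and 25% for H3K27ac within 100 kb (27.8%). H3K27me3 remained at 11.4% in that setting, against 1.87% of all genes. Within 50 kb FLI1 lay near 4.55% (7.64% of all genes) and H3K27ac near 68.2% (68.2%). Within 200 kb H3K27ac lay near 97.7% (86.9%). Neighbouring collagen genes counted as 1 locus gave 94.6% for H3K27ac within 100 kb, against 77.8% of all genes, which were not merged into loci. Windows of 2 kb gave 2 genes with H3K27ac without H3K4me3 (1.41% of all genes) and 1 with only a NuRD subunit (1.32%). They put CHD4 at 18.2% of collagen genes, against 12.6% of all genes. Without peaks shared with another gene RBBP4 lay at 4.55%, against 15.2% of all genes. The HDAC2 interval lay below the share of all genes in the reported setting and covered it in 5 alternatives: both other windows, the −log10 p limit, the 2000 strongest peaks and without shared peaks. The intervals of H3K4me3 and H3K27ac at gene ends covered it with the 2000 strongest peaks only. The RBBP4 interval covered the share of all genes in the reported setting. It lay below that share with the −log10 p limit and without shared peaks. For H3K27ac around 100 kb, the interval covered the share as reported and lay above it within 200 kb and by locus. The causes were not tested. Counting starts only was not run, since 72.7% of members had an annotated start, under the minimum of 80%. No paired analysis was possible because there was 1 list per target. Depth is unknown, so a missing peak does not show that a protein or mark was absent.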
